A study of Sus scrofa with 9 samples.

Results

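The SLC25 family of mitochondrial carriers was examined in the livers of diabetic and healthy pigs. Members were taken by symbol: every row of the deposited table named SLC25A followed by a number, apart from SLC25A13, SLC25A15 and SLC25A20, which left 42 of 29837 genes. The diabetic group held 4 MIDY pigs (mutant INS gene-induced diabetes of youth), which are transgenic for the insulin mutation C94Y, and the control group held 5 wild type (WT) pigs. All 9 animals were female and 2 years old, were fed daily and had free access to water. Diabetic animals were given short and long acting insulin, so genotype and insulin treatment cannot be told apart. The promoter that drives the transgene is not given in the sources used here. Each library came from the ribosomally depleted total RNA of 1 liver.

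SLC25 carriers are small proteins built from repeated pairs of membrane helices, and most sit in the inner mitochondrial membrane. They exchange metabolites, nucleotides, cofactors and inorganic ions between the matrix and the cytosol, so pathways that are split between those compartments run through them. In liver these include gluconeogenesis, the export of citrate for fat synthesis, amino acid breakdown and heme synthesis. SLC25A47 is known as a carrier found mainly in liver, and what it transports is still debated.

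The libraries held 14115415 to 19533463 counts. Hepatocyte markers such as ALB and APOB were abundant in every library. The summed level of 10 such markers was 151671 to 182522 CPM (counts per 1000000 of the scaled library) in MIDY and 122847 to 182200 CPM in WT. On principal components of the 500 most variable genes, WT replicate 1 lay nearest to the MIDY libraries on the first component (0.90, against 6.51 for the nearest MIDY library) and WT replicate 2 stood apart on the second (25.2, with the other libraries between -11.0 and 4.12). Some results are also given with these libraries left out. In whole liver, fewer cells of a type and less RNA per cell cannot be told apart. Markers of several other cell types, though not of all, were mostly lower in MIDY. Fitted values were below 0 for 7 of 8 stellate and fibroblast markers (median log2 fold change -0.87, COL1A2 called), 6 of 6 T and NK cell markers (-0.83, CD2 called), both tested B and plasma cell markers (-0.83), 5 of 6 biliary markers (-0.31) and 6 of 8 Kupffer cell and macrophage markers (-0.20; edgeR). The summed T and NK level was 12.9 to 16.1 CPM in MIDY and 19.0 to 33.6 CPM in WT, without overlap, and the stellate sum 258 to 391 CPM and 361 to 618 CPM, with overlap. Of 6 endothelial markers 4 had fitted values below 0 (median -0.09), and their sum was 504 to 588 CPM in MIDY and 456 to 555 CPM in WT. Of 3 tested adipocyte markers 2 had fitted values above 0 (median 0.42). The part of these cell types in the differences of the carriers was not tested.

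SLC25A47 and SLC25A42, the carrier of coenzyme A, rose in MIDY liver, and no member fell at the threshold used. Counts were tested with edgeR's quasi-likelihood test over 14100 genes, and a gene was called at a Benjamini-Hochberg adjusted p below 0.05 over all of them. Of the 42 members, 36 passed the low-count filter. Of these, 2 were called, or 5.56%, against 1.17% of all genes tested. Calls higher in MIDY were made for 0.816% of all genes and calls lower for 0.355%. At an unadjusted p below 0.05 there were 10 members, which is 27.8%, against 16.1% of all genes. SLC25A1, SLC25A4, SLC25A29, SLC25A34, SLC25A42, SLC25A46 and SLC25A47 were the 7 higher ones and SLC25A12, SLC25A21 and SLC25A37 the 3 lower ones. Levels of the groups did not overlap for 4 members, SLC25A1, SLC25A42 and SLC25A47 (higher) and SLC25A37 (lower). Over all genes, 6.35% were separated in this way, 3.72% with MIDY higher and 2.63% with MIDY lower. The fitted log2 fold change was above 0 for 22 of the 36 members and for 49.3% of all genes, with a median of 0.13 over the members and of -0.00465 over all genes. For 19 of the 36 the absolute log2 fold change was below 0.25. The summed level of the 42 members apart from SLC25A47 was 1364 CPM in MIDY replicate 1. In the other MIDY libraries it was 980 to 1114 CPM, within the WT range of 912 to 1125 CPM.

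**Figure D1:**
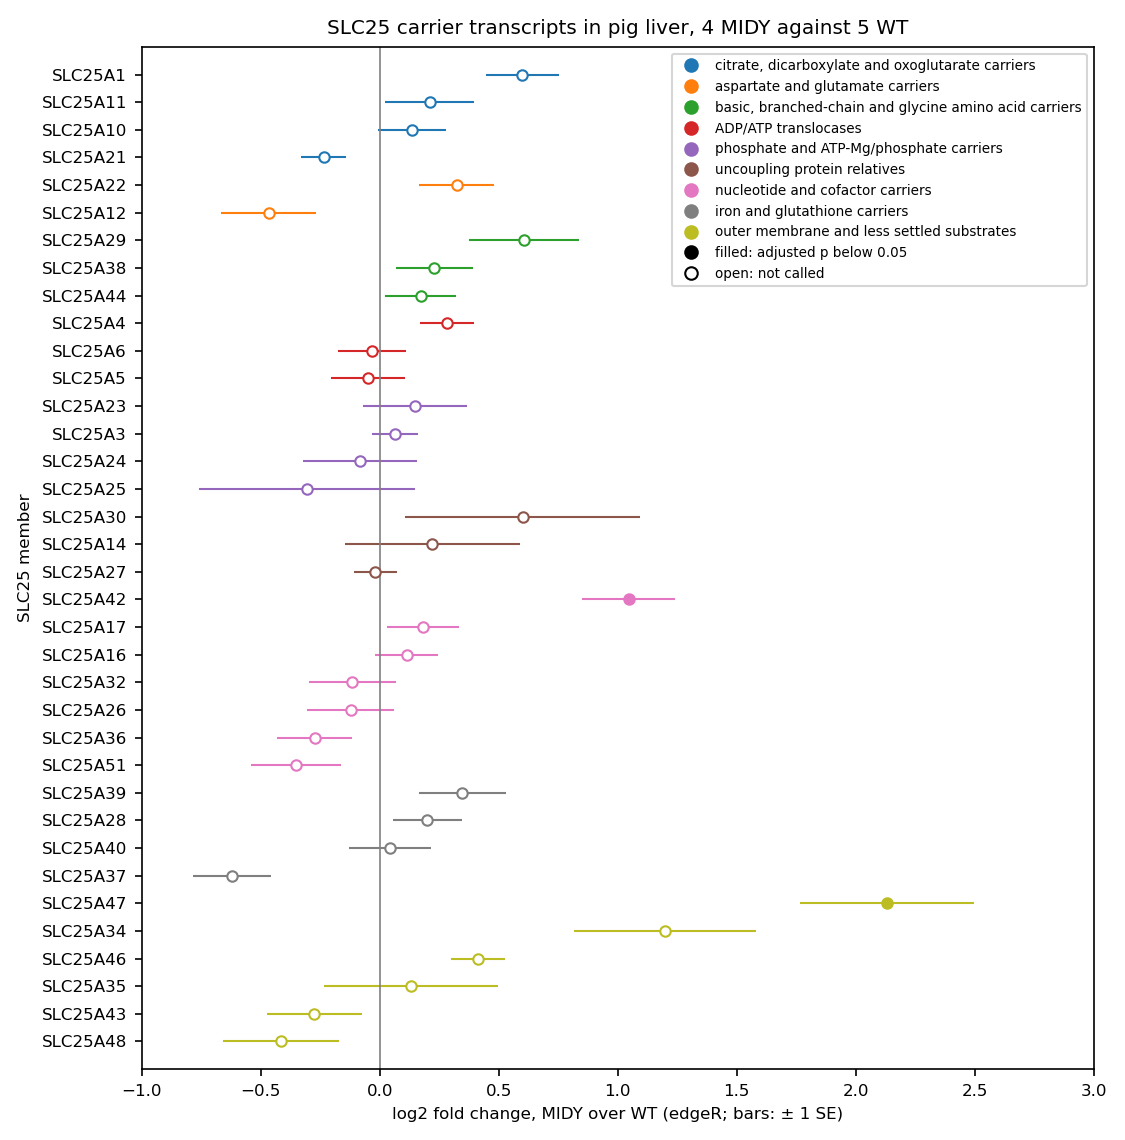
Log2 fold change of MIDY over WT (x axis, edgeR, bars ± 1 SE) for the 36 tested members, grouped by what they carry (colours); filled points passed an adjusted p of 0.05. SLC25A47 at 2.13 and SLC25A42 at 1.05 are the called members, SLC25A34 at 1.20 has a wide error, and SLC25A37 at -0.62 has the lowest value.

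SLC25A47 had the largest fold change of the family. Its gene lies on chromosome 7 (121204213 to 121210376, Sscrofa11.1). The level was 296, 164, 95.9 and 92.6 CPM in MIDY replicates 1 to 4 and 34.6, 53.3, 31.5, 26.8 and 38.7 CPM in WT replicates 1 to 5. Every MIDY library thus lay above every WT library, and the MIDY libraries ranged more widely (3.20-fold from lowest to highest, against 1.99-fold in WT). The mean was 162 ± 95.4 CPM in MIDY (SD, n = 4) and 37.0 ± 10.1 CPM in WT (SD, n = 5). The log2 fold change was 2.13 ± 0.37 (SE; edgeR adjusted p = 0.0336), the 29th highest of the 14100 genes tested. Of all counts assigned to the 42 members, SLC25A47 took 17.9, 13.0, 7.92 and 8.63% in the MIDY libraries and 2.33 to 5.14% in the WT libraries. Without MIDY replicate 1, the highest library, the log2 fold change was 1.67 (edgeR adjusted p = 0.0200). The call was made in 4 of the 9 fits that left out 1 library; it was lost without MIDY replicate 2, WT replicate 2, WT replicate 3, WT replicate 4 or WT replicate 5 (edgeR adjusted p = 0.0957, 0.0530, 0.0868, 0.0718 and 0.0859), while the log2 fold change stayed between 1.67 and 2.32. Without WT replicates 1 and 2 together it was 2.32 (edgeR adjusted p = 0.0773).

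The neighbours of SLC25A47 on the chromosome showed smaller differences. SLC25A29, a family member that carries basic amino acids, ends 11843 bases before it (121178211 to 121192369). SLC25A29 had a log2 fold change of 0.61 ± 0.23 and was not called (SE; edgeR adjusted p = 0.225); it was 0.35 without MIDY replicate 3 and 0.79 without MIDY replicate 1 (edgeR adjusted p = 0.519 and 0.0893). On the other side WARS, a tryptophanyl-tRNA synthetase 2604 bases away, had a log2 fold change of -0.14 ± 0.16 and WDR25 one of 0.25 ± 0.22 (SE; edgeR adjusted p = 0.723 and 0.624). These neighbours were looked at after the value of SLC25A47 was seen.

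Among the carriers of nucleotides and cofactors, SLC25A42 rose and the other tested members were not called. SLC25A42 brings coenzyme A into the matrix, and its gene lies on chromosome 2 (58753363 to 58803356). Its level was 9.67, 14.5, 8.16 and 8.55 CPM in MIDY replicates 1 to 4 and 5.28, 4.70, 3.80, 4.98 and 5.87 CPM in WT replicates 1 to 5. The lowest MIDY library lay above the highest WT library, and MIDY replicate 2 was the highest. The log2 fold change was 1.05 ± 0.19, or 2.07-fold (SE; edgeR adjusted p = 0.0273). An unnamed long non-coding RNA gene overlaps SLC25A42 and did not pass the filter, so its counts could not be compared. The call was made in 5 of the 9 fits that left out 1 library. It was lost without MIDY replicate 2 (log2 fold change 0.83), WT replicate 2, WT replicate 3 or WT replicate 4 (edgeR adjusted p = 0.0719, 0.0613, 0.0603 and 0.0557) and without WT replicates 1 and 2 together (edgeR adjusted p = 0.0825).

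SLC25A16, which has been linked to coenzyme A in the matrix as well, was nearly level: 17.7 to 19.6 CPM in MIDY and 12.8 to 20.2 CPM in WT (log2 fold change 0.11 ± 0.13, SE). SLC25A17, which serves the peroxisome and carries coenzyme A and related cofactors there, had a log2 fold change of 0.18 ± 0.15 (SE). The remaining tested cofactor carriers had fitted values below 0. They were SLC25A51, which imports NAD (-0.35 ± 0.19), SLC25A36, a pyrimidine nucleotide carrier (-0.27 ± 0.16), SLC25A26, which imports the methyl donor S-adenosylmethionine (-0.12 ± 0.18), and SLC25A32, which carries folate and FAD (-0.11 ± 0.18; log2 ± SE). Of the 7 tested members of the group 3 had a fitted value above 0, and the median was -0.11.

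**Figure D2:**
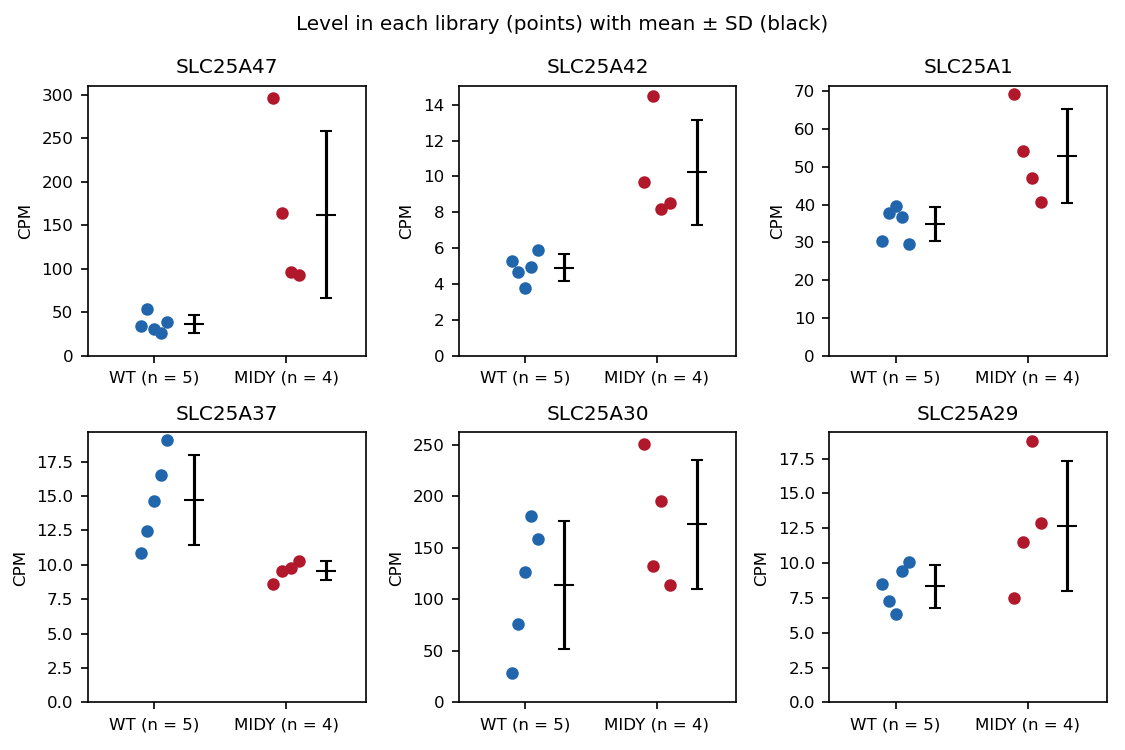
CPM (y axis, from 0) in each WT (blue, n = 5) and MIDY (red, n = 4) library for 6 members, with mean ± SD in black. Groups are apart for SLC25A47, SLC25A42, SLC25A1 and SLC25A37 and overlap for SLC25A30 and SLC25A29.

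SLC25A1, the citrate carrier, was higher in every MIDY library but was not called. It exports citrate from the matrix, the source of acetyl-CoA for fatty acid and sterol synthesis in the cytosol, and its gene lies on chromosome 14 (50974616 to 51002970). Levels were 69.4, 54.3, 47.0 and 40.6 CPM in MIDY replicates 1 to 4 against 30.5, 37.8, 39.5, 36.7 and 29.7 CPM in WT replicates 1 to 5. The groups were separated by a small gap, between MIDY replicate 4 and WT replicate 3. The fit gave SLC25A1 a log2 difference of 0.60 with an SE of 0.15 (edgeR adjusted p = 0.0807). This p was below the threshold in 4 of 17 alternative analyses, among them edgeR without MIDY replicate 4 (0.70, edgeR adjusted p = 0.0402) and edgeR with scaling by total counts (0.61, edgeR adjusted p = 0.0468).

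The other carriers of organic acids differed less. SLC25A11 exchanges oxoglutarate for malate in the malate-aspartate shuttle and had a log2 fold change of 0.21 ± 0.19; SLC25A10, the dicarboxylate carrier, had one of 0.14 ± 0.14 (SE). SLC25A21 carries oxodicarboxylates formed in lysine and tryptophan breakdown and was lower, at 28.3 ± 1.50 CPM in MIDY (SD, n = 4) and 33.4 ± 2.50 CPM in WT (SD, n = 5; log2 fold change -0.24 ± 0.10, adjusted p = 0.254 by edgeR). The groups overlapped, since WT replicate 2 (29.4 CPM) lay below MIDY replicate 2 (29.8 CPM).

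Carriers of amino acids had no called member. SLC25A12, an aspartate and glutamate exchanger of the malate-aspartate shuttle known best from muscle and brain, stood at 3.56, 2.85, 3.27 and 3.15 CPM in MIDY replicates 1 to 4 and at 4.31, 3.75, 5.80, 5.04 and 3.33 CPM in WT replicates 1 to 5. Only WT replicate 5 fell within the MIDY range (log2 fold change -0.47 ± 0.20 SE; edgeR adjusted p = 0.270). The glutamate carrier SLC25A22 had a fitted value of the opposite sign (0.32 ± 0.16 log2, SE; edgeR adjusted p = 0.332).

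SLC25A29 was measured at 7.49, 11.5, 18.8 and 12.8 CPM in MIDY replicates 1 to 4 and at 8.48, 7.24, 6.35, 9.46 and 10.1 CPM in WT replicates 1 to 5. MIDY replicate 1 lay inside the WT range and the other MIDY libraries above it. The order within MIDY was thus not that of its neighbour SLC25A47, which was highest in replicate 1. SLC25A38, which supplies glycine for heme synthesis, and SLC25A44, which carries branched-chain amino acids, had log2 fold changes of 0.23 ± 0.16 and 0.17 ± 0.15 (SE; edgeR adjusted p = 0.524 and 0.611).

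The ADP/ATP translocases, which exchange ATP made in the matrix for cytosolic ADP, were not called. SLC25A4 stood at 163, 145, 161 and 149 CPM in MIDY replicates 1 to 4 and at 153, 116, 108, 123 and 134 CPM in WT replicates 1 to 5. WT replicate 1 was the only WT library within the MIDY range (log2 fold change 0.28 ± 0.11 SE; edgeR adjusted p = 0.239). SLC25A5 was at 77.1, 54.6, 48.3 and 49.7 CPM in MIDY and at 46.4, 61.4, 62.7, 69.4 and 57.0 CPM in WT. SLC25A6 was at 126, 84.2, 84.4 and 85.4 CPM in MIDY and at 82.5, 105, 104, 109 and 85.4 CPM in WT. Both had fitted values near 0 (-0.05 ± 0.15 and -0.03 ± 0.14 log2, SE), whose sign held in 14 and 13 of 17 alternative analyses. SLC25A4 gave 44.6 to 54.8% of the counts of these 3 genes in MIDY libraries and 39.4 to 54.2% in WT libraries, ranges that overlap through WT replicates 1 and 5 (54.2 and 48.5%). The translocases are similar in sequence, so reads can be lost or split between them, and SLC25A6 has no chromosome in the reference table. SLC25A31, the translocase of the testis, had 0 counts in all libraries.

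No tested phosphate carrier was called. SLC25A3 imports the phosphate used by ATP synthase, and it was among the least variable members: 121, 120, 115 and 102 CPM in MIDY replicates 1 to 4 and 105, 112, 121, 109 and 101 CPM in WT replicates 1 to 5 (log2 fold change 0.06 ± 0.10 SE). The ATP-Mg/phosphate carriers adjust the adenine nucleotide pool of the matrix. Of these SLC25A23 had 4.87, 7.84, 6.01 and 5.61 CPM in MIDY and 4.94, 4.45, 8.35, 4.29 and 5.42 CPM in WT (log2 fold change 0.15 ± 0.22 SE; edgeR adjusted p = 0.795). The ranges overlapped almost fully. SLC25A24 had a log2 fold change of -0.08 ± 0.24 (SE). SLC25A25 differed from animal to animal, with 65.5, 34.1, 21.0 and 13.2 CPM in MIDY and 23.6, 39.9, 33.5, 53.9 and 54.9 CPM in WT, and so a wide error (-0.30 ± 0.45 log2, SE).

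Relatives of the uncoupling proteins held 1 of the least variable members, SLC25A27, and 2 of the most variable, SLC25A14 and SLC25A30. SLC25A27 lay between 71.8 and 80.7 CPM in MIDY and between 71.6 and 83.5 CPM in WT (log2 fold change -0.02 ± 0.09 SE, above 0 in 2 of 17 alternative analyses, scaling by total counts included). SLC25A30, first described as a kidney carrier, stood at 251, 132, 195 and 114 CPM in MIDY replicates 1 to 4 and at 28.2, 75.9, 127, 181 and 158 CPM in WT replicates 1 to 5. WT replicates 1 and 2 were below every MIDY library and the other WT libraries inside the MIDY range. The log2 fold change was 0.60 ± 0.49, and 0.15 without WT replicates 1 and 2 (edgeR adjusted p = 0.603 and 0.838). SLC25A14 was low, at 0.690 to 2.31 CPM (0.22 ± 0.37 log2, SE).

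Within a group, the highest library exceeded the lowest by a median of 1.55-fold over the 36 members in MIDY and 1.59-fold in WT. The excess was above 2-fold for 7 members in MIDY and 6 in WT, and SLC25A14, SLC25A25, SLC25A30, SLC25A34 and SLC25A35 were in both sets. SLC25A29 and SLC25A47 passed it only in MIDY and SLC25A48 only in WT; whether these spreads differ was not tested. In WT the largest was 6.41-fold, for SLC25A30, and in MIDY 4.97-fold, for SLC25A25. SLC25A3, SLC25A21 and SLC25A27 stayed below 1.3-fold in both groups. SLC25A14 and SLC25A35 had few counts, 207 and 131 in all libraries together. How much of their spread is counting error was not tested.

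**Figure D3:**
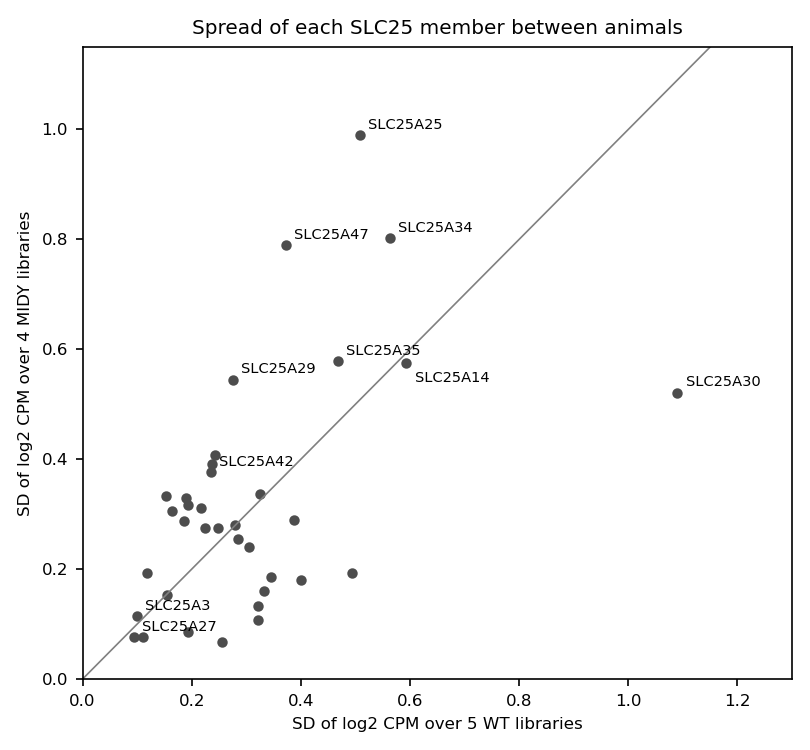
SD of log2 CPM over the 5 WT (x axis) and 4 MIDY (y axis) libraries for each of the 36 tested members, with the line of equal spread. SLC25A30 has the widest WT spread (1.09), SLC25A25 the widest MIDY spread (0.99), and SLC25A3 and SLC25A27 sit near 0.10 or below in WT.

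SLC25A37, which imports iron for heme and iron-sulfur clusters and is known best from erythroid cells, was lower in every MIDY library and was not called. Its gene lies on chromosome 14 (7665002 to 7709998). Levels were 8.61, 9.58, 9.80 and 10.3 CPM in MIDY replicates 1 to 4 and 10.8, 12.5, 14.6, 16.5 and 19.1 CPM in WT replicates 1 to 5. The highest MIDY and the lowest WT library were close together, and the WT libraries were spread more widely. The log2 fold change was -0.62 ± 0.16 (SE; edgeR adjusted p = 0.0888). The adjusted p was below the threshold in 3 of 17 alternative analyses. Among them were edgeR without WT replicate 1 (-0.72, edgeR adjusted p = 0.0407) and without WT replicates 1 and 2 (-0.81, edgeR adjusted p = 0.0477). Of the 9 fits that left out 1 library only 1 passed the threshold, and the edgeR adjusted p reached 0.199. Without MIDY replicate 1 the log2 fold change was -0.57 (edgeR adjusted p = 0.172). All 5 tested erythroid markers of 6 had fitted values below 0 (median -1.15 log2) and none was called. Their summed level was 163 to 540 CPM in MIDY and 69.3 to 1506 CPM in WT, with HBB the most abundant and none at 0 in all libraries. In WT replicates 1 to 5 the erythroid sums were 1506, 548, 1066, 72.9 and 69.3 CPM. The summed level of 4 neutrophil markers was 1.68 to 4.06 CPM in MIDY and 2.99 to 7.44 CPM in WT. The part of either cell type in the result was not tested.

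The other carriers of iron and glutathione were not called. SLC25A28, the second mitochondrial iron importer, had a log2 fold change of 0.20 ± 0.14, opposite in sign to that of SLC25A37 (SE; edgeR adjusted p = 0.527). SLC25A39 and SLC25A40 bring glutathione into the matrix and had log2 fold changes of 0.35 ± 0.18 and 0.04 ± 0.17 (SE; edgeR adjusted p = 0.378 and 0.935).

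Of the members with other places or less settled substrates besides SLC25A47, edgeR called none, while DESeq2 called SLC25A46 and SLC25A34 (DESeq2 adjusted p = 0.0329 and 0.0442). SLC25A46 sits in the outer membrane and takes part in mitochondrial fission and lipid traffic. It was at 29.6, 23.9, 29.9 and 28.8 CPM in MIDY replicates 1 to 4 and at 24.1, 21.4, 17.9, 21.0 and 21.1 CPM in WT replicates 1 to 5. The groups overlapped only where MIDY replicate 2 met WT replicate 1 (log2 fold change 0.41 ± 0.11 SE; edgeR adjusted p = 0.0990). SLC25A34 was at 7.86, 9.72, 3.58 and 3.20 CPM in MIDY and at 4.52, 1.70, 2.00, 2.08 and 2.94 CPM in WT. MIDY replicates 1 and 2 were far above the rest, and WT replicate 1 lay above MIDY replicates 3 and 4 (log2 fold change 1.20 ± 0.38 SE; edgeR adjusted p = 0.161). SLC25A46 and SLC25A34 are described here after their values were seen. SLC25A48, linked to choline import (-0.41 ± 0.24), SLC25A43 (-0.27 ± 0.20) and SLC25A35 (0.13 ± 0.36 log2, SE) had edgeR adjusted p-values from 0.434 to 0.904.

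The 6 members that did not pass the filter had few counts in all 9 libraries together, and 5 of them are described. The pyrimidine nucleotide carrier SLC25A33 had 64. SLC25A53, SLC25A45 and SLC25A41 had 43, 41 and 21 counts, and SLC25A31 had 0, where a count of 0 allows up to 3 counts per library. No fold change is given for these genes.

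**Figure D4:**
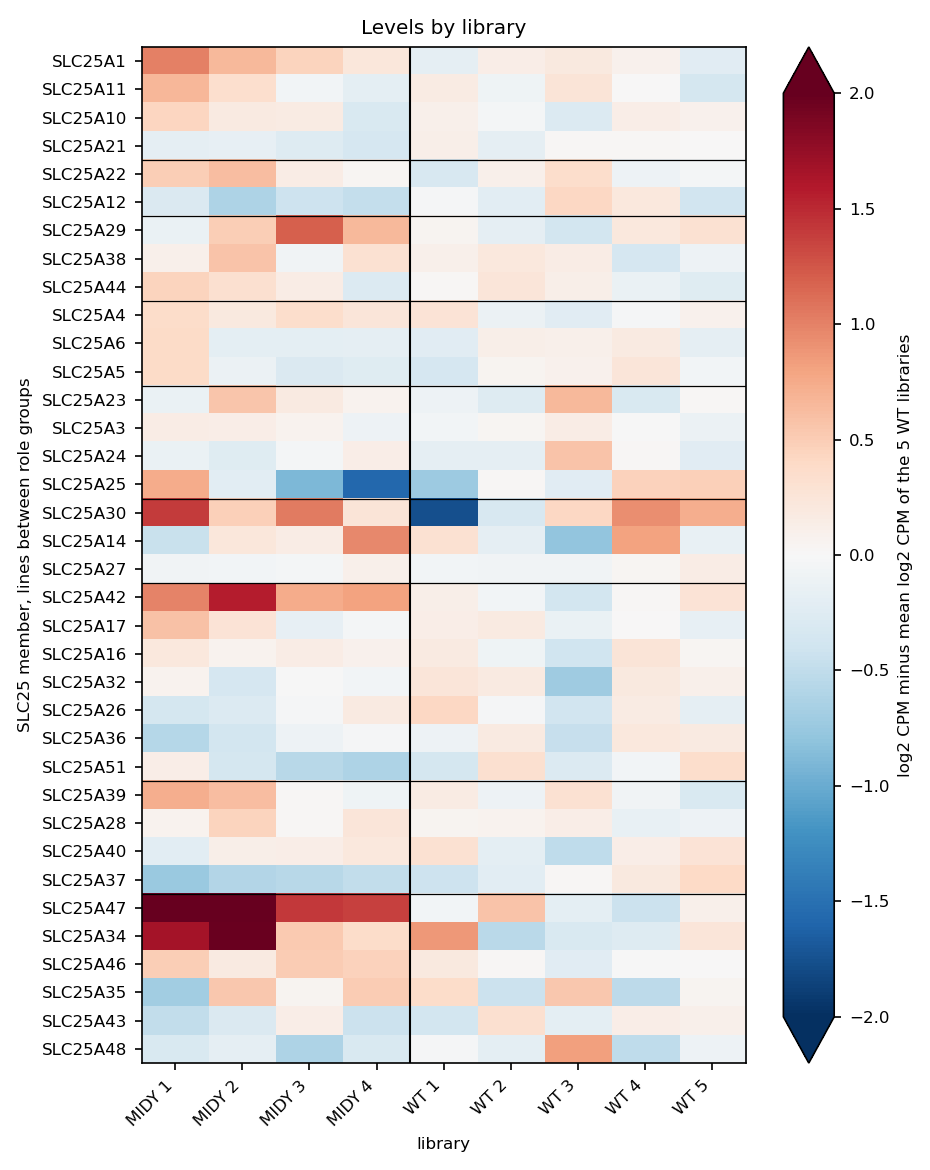
Each library's log2 CPM minus the mean log2 CPM of the WT libraries (colour; red above, blue below, capped at 2 and -2) for the 36 tested members (rows, in the role groups) and 9 libraries (columns). SLC25A47 and SLC25A42 are red in all 4 MIDY libraries, SLC25A37 is blue in all 4, and SLC25A30 is lowest in WT replicate 1.

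In RefSeq's table for Sscrofa11.1 all 42 members were found as protein-coding genes, and 41 have a chromosome. Chromosome 2 holds 7 of them, more than any other, and chromosome 12 holds 5. Besides SLC25A29 and SLC25A47, SLC25A23 and SLC25A41 lie side by side on chromosome 2, and SLC25A43 and SLC25A5 on chromosome X with 12523 bases between them. Other gene models overlap 13 members, SLC25A1, SLC25A10, SLC25A11, SLC25A12, SLC25A21, SLC25A32 and SLC25A42 among them. The strand setting of the counting is not given in the sources used here, so the counts of these members are uncertain.

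Genes that work with the carriers were taken from lists. In the list of 20 enzymes that share metabolites with the carriers, 2 were called higher and 0 lower by edgeR. Over all genes, 0.816% were called higher and 0.355% lower. Fitted values were above 0 for 12 of the 20 and below 0 for 8, with a median log2 fold change of 0.22. An unadjusted edgeR p below 0.05 was found for 10 of the 20, against 16.1% of all genes. The 2 called by edgeR were GOT1 and IDH1. GOT1, the cytosolic aspartate aminotransferase of the malate-aspartate shuttle, had a log2 fold change of 1.26 ± 0.15 (SE, edgeR adjusted p = 0.00346). IDH1, the cytosolic isocitrate dehydrogenase, had one of 0.82 ± 0.13 (SE, edgeR adjusted p = 0.0144). IDH2, also on the list, was not called and lay lower in MIDY, at 41.8 to 53.3 CPM against 55.9 to 82.5 CPM in WT. The number of these enzymes called by edgeR was 1 without MIDY replicate 2. DESeq2 called 4 of the 20, and 4.62% of all genes to which it gave an adjusted p. Of 16 other inner membrane transporters 6 had an unadjusted edgeR p below 0.05, and 12 had a fitted value above 0. At the adjusted threshold 1 of the 16 rose and 0 fell by edgeR (median 0.14), read against the same edgeR shares. That gene was SFXN3, a sideroflexin (2.18 ± 0.33 log2, SE; edgeR adjusted p = 0.0122), which was not called without WT replicates 1 and 2; ABCB10, a transporter needed for heme synthesis, followed with 0.53 ± 0.15 (SE; edgeR adjusted p = 0.110).

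Of 15 tested genes of the machinery that imports and inserts carrier proteins, 0 were called by edgeR, DESeq2 or limma voom and 0 had an unadjusted edgeR p below 0.05, with 7 fitted values above 0 and a median of -0.02. The smallest p-values were those of AGK (-0.35 ± 0.17) and TIMM22 (0.55 ± 0.31 log2, SE; edgeR adjusted p = 0.321 and 0.410), both parts of the TIM22 complex. Of 25 tested genes of mitochondrial biogenesis and content 0 were called by any of the 3 tools and 2 had an unadjusted edgeR p below 0.05, where 16.1% of all genes had one. Fitted values were above 0 for 22 of the 25, against 49.3% of all genes, with a median of 0.13. The lowest p-values there were those of HSPD1, the matrix chaperonin (0.26 ± 0.10), and SDHB, a subunit of succinate dehydrogenase (0.25 ± 0.11 log2, SE; edgeR adjusted p = 0.230 and 0.301). PPARGC1A, a coactivator of mitochondrial genes, had a log2 fold change of 0.13 ± 0.16 (SE). Family relatives named otherwise were also level, with MTCH1 at 0.08 ± 0.11 and MTCH2 at 0.03 ± 0.11 (log2 ± SE), and UCP1 and UCP3 had 2 counts each in all libraries together.

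The number of members called depended on the test and on single libraries. DESeq2 called 6 members (16.7% of the 36, against 4.62% of all genes to which it gave an adjusted p), of which 5 were higher: SLC25A1, SLC25A34, SLC25A42, SLC25A46 and SLC25A47, with SLC25A37 lower. Limma voom called SLC25A42 and SLC25A47 alone (5.56%, against 1.66% of all genes). Over the fits that left out 1 library, edgeR called 0 to 3 members; 0 were called without MIDY replicate 2, WT replicate 2, WT replicate 3 or WT replicate 4.

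**Figure D5:**
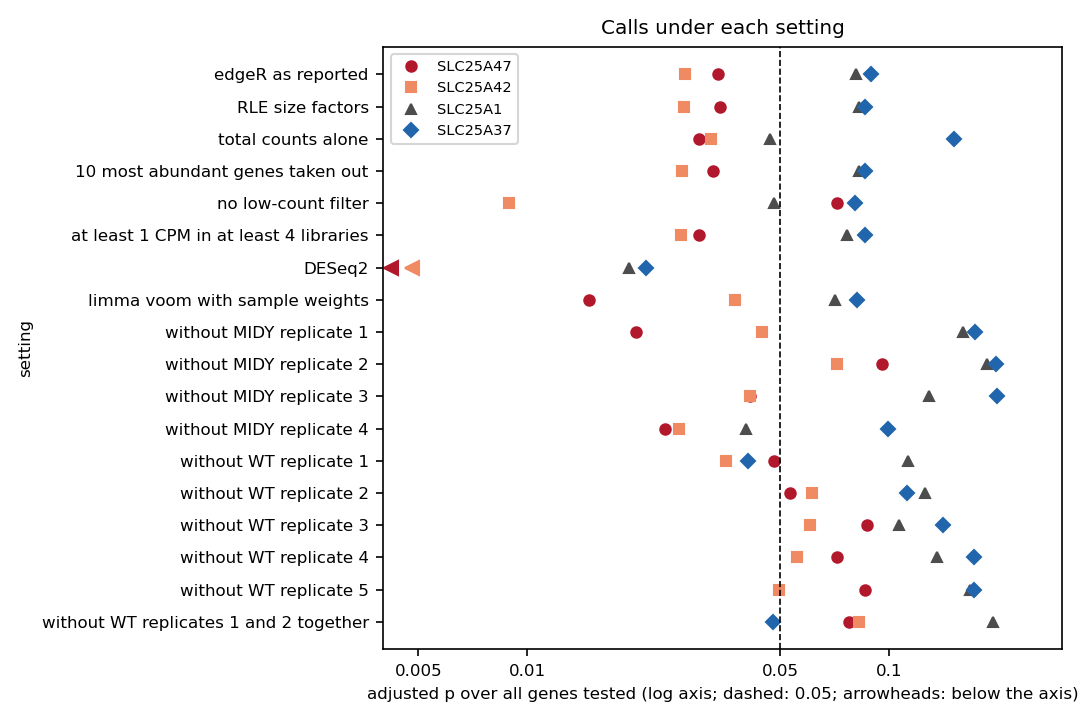
Adjusted p over all genes (x axis, log scale) of the 4 members whose groups do not overlap, under the reported edgeR fit and 17 alternatives (y axis); the dashed line is the threshold of 0.05 and arrowheads are values below the axis. SLC25A47 and SLC25A42 lie left of the line in 10 and 12 of the alternatives, SLC25A1 in 4 and SLC25A37 in 3.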

How the data were processed

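Liver RNA of 4 MIDY and 5 WT pigs was sequenced after Trizol extraction and library preparation with the Encore Complete kit, per the labels' protocols. The deposited table gives the authors' raw counts, not normalized, with 1 row per symbol, 1 column per animal and 0 unused columns. STAR, HTSeq, DESeq2 and the build Sscrofa11.1 are named in the submitters' processing notes; no versions, annotation release or strand setting are given there. Groups follow the genotype labels, which name no batch or litter.

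The edgeR version was 4.0.16 under R 4.3.3 (filterByExpr, TMM scaling, robust quasi-likelihood fit, two-sided), adjusted by Benjamini-Hochberg over 14100 genes. The script was tested on simulated data. Each SE is the absolute log2 fold change over the root of its F statistic. CPM are counts per 1000000 of the TMM-scaled library. The common biological coefficient of variation was 21.5%. Alternatives were RLE and total-count scaling, removal of the 10 most abundant genes, no filter, a filter of 1 CPM in 4 libraries, DESeq2 1.42.0, limma 3.58.1 voom with sample weights, each library left out, and WT replicates 1 and 2 left out.

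Values by library are given for members that were called, had groups that did not overlap, had the smallest p of their role group, or were among the 8 with the most counts. The last criterion replaces levels per kilobase, since no transcript lengths were used here; levels are therefore compared between libraries and not between genes. From each list the called genes and up to 2 with the smallest p are named. Some other members, PPARGC1A, IDH2 and UCP2 were added after their values were seen. The members, role groups and lists were chosen with earlier results of these data known. The values of 1 member are not reported here.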

Additional observations from a re-analysis of the deposited data

Results flagged for a closer look

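For 5 of the 72 combinations of a tested member and a group, 1 library lay far from the others of its group; chance marks about 1 in 20 such groups. SLC25A6 was at 126 CPM in MIDY replicate 1, with the other MIDY libraries between 84.2 and 85.4 CPM. The remaining 4 were all in WT replicate 3. There SLC25A23 was at 8.35 CPM (next 5.42), SLC25A24 at 3.04 CPM (next 2.08) and SLC25A48 at 11.2 CPM (next 6.26), each the highest WT value, and SLC25A32 was at 7.73 CPM, the lowest (next 13.6).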

How the results depend on the processing

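SLC25A47 kept its direction in all 17 alternatives (log2 fold change 1.67 to 2.32) and its call in 10; it lost it with no low-count filter (2.14), without WT replicates 1 and 2 (2.32) and in 5 of the fits without 1 library (1.67 to 2.32 over all 9). Genes called over all, 165, became 639 with DESeq2, 66 without WT replicates 1 and 2, and 38 to 259 with 1 library left out. Members called, 2, became 6 with DESeq2, 1 without WT replicates 1 and 2, and 0 to 3 with 1 library left out. Separated members, 4, became 8 without WT replicates 1 and 2 and 4 to 7 with 1 library left out, where fewer libraries have to be apart. With DESeq2 the 2 called enzymes of the shared-metabolite list became 4 and the 1 called transporter became 2. The cause of the other changes was not tested. Scaling moved the median of all genes by at most 0.02 and turned the sign of 1 member, SLC25A27. The labels give no pairing of animals between the genotypes, so none was fitted. Members with few counts, such as SLC25A35 (131 in all libraries), have the least precise values.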
